A study of Mus musculus with 16 samples.

Results

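The first hours of RANKL treatment were followed in mouse bone marrow-derived macrophages that received no α-ketoglutarate. Of the 16 arrays of the series, 4 carry this experiment: the 2 arrays at 0 h, and the control (DW) arrays labelled early, which are 1 array at 3 h and 1 at 6 h with RANKL. The cells came from the tibias and femurs of male C57BL/6 mice aged 5 weeks. Every array of the series had M-CSF in the medium. At 0 h the cells had M-CSF and DW without RANKL, and at 3 and 6 h they had M-CSF, DW and RANKL. The other 12 arrays are DW arrays at 12, 24, 48 and 72 h, and arrays with RANKL and 1 mM dimethyl α-ketoglutarate (αKG) from 0.5 to 72 h. The series asks how αKG acts on osteoclast formation, and the comparison described here comes from its arm without αKG. Genes were taken from the deposited log2 table, using features with exactly 1 gene symbol and 1 feature per gene, which gave 22180 genes from 33793 features.

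RANKL is the ligand of RANK, a receptor of the tumour necrosis factor receptor family on macrophages that can become osteoclasts. The receptor has no enzyme activity of its own: it gathers TRAF adaptors, which switch on MAP kinases and both branches of NF-κB signalling. In the classical branch the inhibitor IκB is degraded and RelA with p50 enters the nucleus. In the alternative branch NIK drives the processing of p100, the product of Nfkb2, to p52, which acts with RelB. Induction of c-Fos and of NFATc1, the master regulator of osteoclast genes, follows in this cell type, and M-CSF keeps the cells alive throughout.

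The only arrays without RANKL are those at 0 h, so RANKL and 3 to 6 h more in culture cannot be told apart. The labels do not say whether cultures or animals were separate, so a p-value here weighs a change against differences among arrays, which may be technical and include those between neighbouring times. In RNA from a whole culture, fewer cells of a type and less RNA per cell cannot be told apart. The 2 arrays at 0 h were close, with an SD of their difference of 0.196 log2 over 15526 genes and 9 genes at least 2-fold apart. Array medians of the 4 arrays lay between 4.85 and 4.89. All 8 macrophage markers were well represented at 0 h, at 8.43 to 12.73 log2, and their summed level (taken on the linear scale) was 14.49 and 14.51 log2 at 0 h, 14.54 at 3 h and 14.55 at 6 h. The 8 osteoclast markers lay at 3.78 to 6.64 log2 at 0 h, with summed levels of 8.41 and 8.42 at 0 h, 8.58 at 3 h and 8.93 at 6 h, and among them Mmp9 alone was over 1 log2 unit higher on average. The neutrophil markers Ngp, Elane, S100a8 and Mpo were present at 0 h at 7.93 to 8.89 log2, whereas Ly6g, a defining marker of mature neutrophils, was at 4.28 and 4.30. The summed level of all 7 neutrophil markers was 10.80 and 10.81 at 0 h, 10.67 at 3 h and 10.78 at 6 h, and none of the 6 tested passed. The markers of B cells, T and NK cells, dendritic cells, mast cells and basophils, erythroid, stromal and endothelial cells had medians of 3.24 to 6.65 log2 at 0 h. A low mean level kept some of them out of the test. Of those measured, 3 of 4 B cell, 1 of 5 T and NK cell and 6 of 6 dendritic cell markers were tested. So were 1 of 4 for mast cells and basophils, 1 of 2 erythroid, 4 of 5 stromal and 3 of 3 endothelial markers. None of those tested passed.

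Within hours of RANKL, Nfkb2, Relb, Ikbke, Traf1 and Birc3, genes of RANK and NF-κB signalling, rose together with immune genes such as Acod1, Clec4e, Cxcl10 and Icam1, and 6 genes fell. With limma and Benjamini-Hochberg adjustment over all genes tested, 53 of 15526 genes passed the threshold of 0.05 (0.341%). Of these, 47 were higher (0.303%) and 6 were lower (0.0386%), and 952 genes had an unadjusted p under 0.05. The median change was 1.61 log2 for the genes that rose and -1.19 for those that fell, beside -0.003 for all genes tested and a median size of change of 0.13. The fit took all 16 arrays as 8 groups of 2, so the step from 3 h to 6 h, and like steps elsewhere in the time course, counted as spread. With the 4 arrays alone in the fit, 775 genes passed (4.99%), 467 higher and 308 lower, all 53 among them. The share of higher genes was therefore 88.7% in the main fit and 60.3% in the fit of 4 arrays.

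The count rested on every array. Without the first or the second array at 0 h 1 gene passed, and without the array at 3 h or at 6 h 2 genes did. Nfkb2 was the gene that passed in each of these 4 fits, with changes of 2.34 to 2.51 log2. Slc13a3 joined it without the 3 h array and Rhoh without the 6 h array. The array left alone in its group was assumed to vary like the other groups. Over all alternatives run, the change ranged from 3.55 to 3.7 log2 for Clec4e, 2.51 to 2.65 for Birc3 and 4.03 to 4.72 for Acod1. A count that uses no pooled spread, of genes whose 2 early arrays both lay at least 2-fold above both arrays at 0 h, gave 98 genes (0.631%), and 17 lay as far below (0.109%). Of the 98, 34 had also passed the limma test, and of the 17, 3 had.

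**Figure D1:**
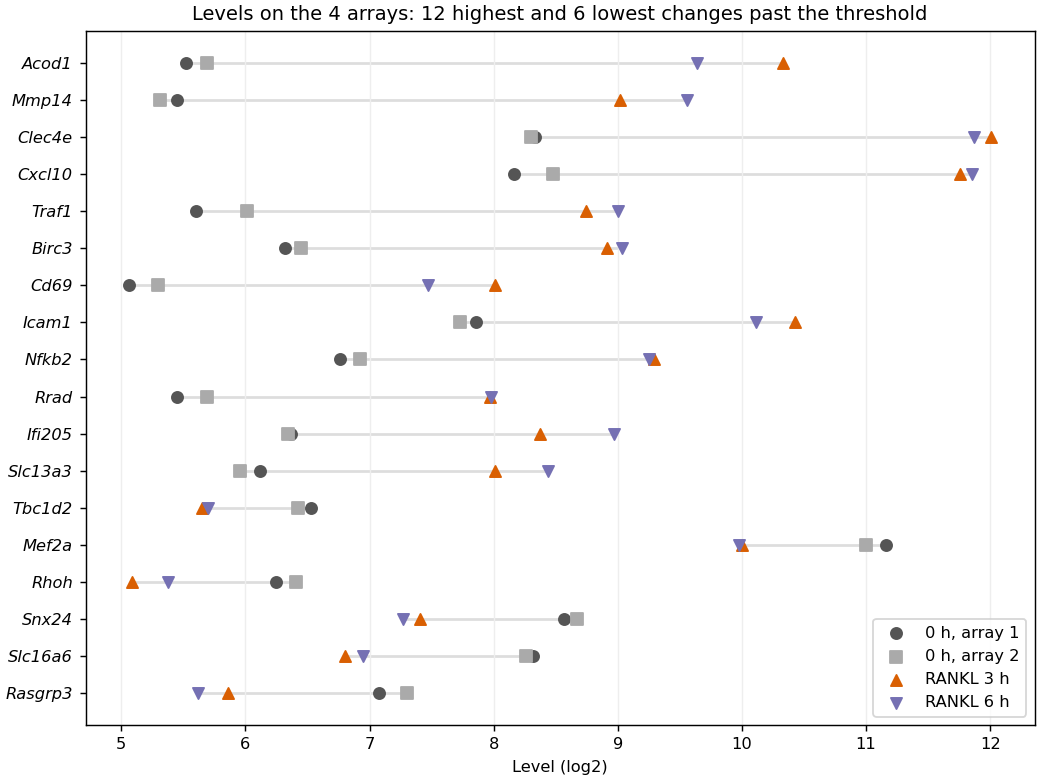
Levels (log2) of the 12 genes with the highest changes and of the 6 genes that fell, with 1 symbol per array: both arrays at 0 h in grey shades, 3 h with RANKL in orange and 6 h in purple. In each gene the grey symbols lie apart from the coloured ones, as for Nfkb2, at 6.76 and 6.92 at 0 h and 9.29 and 9.25 with RANKL.

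The receptor gene did not pass the test. Tnfrsf11a, which encodes RANK, was at 8.71 and 8.74 log2 at 0 h, 8.63 at 3 h and 8.51 at 6 h, a change of -0.16 ± 0.55 log2 (standard error, as for all errors given with ±). Of the 16 receptor and adaptor genes tested, 3 rose and 0 fell, with a list median of 0.27 log2. Traf1, a TRAF adaptor that binds cIAP ubiquitin ligases, was at 5.60 and 6.01 log2 at 0 h, 8.74 at 3 h and 9.0 at 6 h. It rose by 3.06 ± 0.41 (limma, adjusted p = 0.0151). Birc3, one of those ligases (cIAP2), went from 6.32 and 6.45 to 8.91 and 9.03, a rise of 2.58 ± 0.30 (limma, adjusted p = 0.00772). Cd40, a related receptor that shares the TRAF adaptors, stood at 6.77 and 6.96 at 0 h, 8.12 at 3 h and 8.21 at 6 h and rose by 1.30 ± 0.21. For all 3 genes the early arrays agreed closely and lay far from the arrays at 0 h. Birc2, the cIAP1 gene, was higher on both early arrays (7.48 and 7.42 against 6.15 and 6.34) but missed the threshold in this fit (adjusted p = 0.3, limma), as did Traf2 (0.87 ± 0.25).

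Of the 17 NF-κB subunit and inhibitor genes tested, 3 rose and 0 fell, and the list median was 1.39 log2, the highest of the 31 pathway lists. Every one of the 17 changes lay above 0, between 0.15 and 2.88. Nfkb2 was at 6.76 and 6.92 log2 at 0 h, 9.29 at 3 h and 9.25 at 6 h, and rose by 2.43 ± 0.19, with the smallest adjusted p of all genes (limma, 0.00075). Relb, its partner in the alternative branch, was at 6.42 and 6.89, then 8.47 and 8.20, and rose by 1.68 ± 0.23 (limma, adjusted p = 0.0157). Ikbke, an IκB kinase-related kinase that also activates interferon regulatory factors, was at 7.77 and 8.26, then 9.63 and 9.69, a rise of 1.65 ± 0.23. The step between the 2 early arrays was -0.04 log2 in Nfkb2, -0.27 in Relb and 0.05 in Ikbke, far smaller than their rise.

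Nfkbib, which encodes IκBβ, went from 7.68 and 7.41 to 8.37 and 8.24 (0.76 ± 0.15) and came nearest to the threshold among the members that missed it (adjusted p = 0.0794, limma). Nfkbia, which encodes IκBα, went from 8.49 and 8.64 to 10.40 and 10.21 (1.74 ± 0.40, adjusted p = 0.148 with limma). Nfkbie, encoding IκBε, went from 5.87 and 6.22 to 9.34 and 8.51 (2.88 ± 0.69, adjusted p = 0.163). Tnfaip3, the A20 deubiquitinase, went from 6.41 and 6.26 to 7.99 and 7.46 (1.39 ± 0.37). Its binding partners Tnip1 (1.43 ± 0.29) and Tnip3 (2.10 ± 0.68), and Bcl3, a nuclear IκB protein (1.48 ± 0.35), had changes of similar size. Nfkbib and Tnip1 were named by their small p in the list, and Nfkbia, Nfkbie, Tnfaip3, Tnip3 and Bcl3 after their values were seen. The 6 genes other than Nfkbib had both early arrays at least 2-fold above both arrays at 0 h, yet none passed in the fit of 8 groups. In the fit of the 4 arrays alone 13 of the 17 members passed, all higher. Rela, the main subunit of the classical branch and also named after its values were seen, was at 9.86 and 9.72, then 10.44 and 10.21 (0.54 ± 0.12, adjusted p = 0.127 with limma).

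Promoter sequences were set beside these changes because the genes that rose include known NF-κB targets. RefSeq promoters (GRCm38.p6), 300 bases each and running from 250 bases before the start site to 50 after it, were found for 38 of the 47 genes that rose and for 4 of the 6 that fell. They were searched on both strands for the NF-κB consensus. A match stood in 9 of the 38 (23.7%), in 1458 of the 12077 tested genes with a promoter (12.1%) and in 8.46% of all 32851 promoters in the table. None of the 4 lower genes with a promoter held one. The AP-1 motif TGANTCA was present in 4 of the 38 (10.5%, beside 6.88% of tested genes), and GAAANNGAA, the core of the interferon-stimulated response element, in 3 (7.89%, beside 8.5%). Of the 4 lower genes, 0 held the AP-1 motif and 1, Rasgrp3, held GAAANNGAA. Genes with several promoters have more chances of a match, and a match describes letters only, not binding.

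At least 2 separate NF-κB matches in 1 promoter were found in 4 genes that rose, Cxcl10, Nfkb2, Casp4 and Tlr2, a feature of 0.886% of tested genes and 0.521% of all promoters. Their promoters are printed 5′ to 3′ on the coding strand with the matches in capitals and overlapping matches joined. Nfkb2 was picked by a rule on NF-κB genes, the other 3 after their values were seen.
Cxcl10 (chr5:92348840-92349139, minus strand): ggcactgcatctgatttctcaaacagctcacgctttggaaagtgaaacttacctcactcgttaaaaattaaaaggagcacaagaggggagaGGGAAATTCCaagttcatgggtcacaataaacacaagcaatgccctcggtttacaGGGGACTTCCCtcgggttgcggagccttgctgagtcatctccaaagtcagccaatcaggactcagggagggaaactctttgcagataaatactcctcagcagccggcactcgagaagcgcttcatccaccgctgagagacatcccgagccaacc
Nfkb2 (first promoter, chr19:46304487-46304786, plus strand): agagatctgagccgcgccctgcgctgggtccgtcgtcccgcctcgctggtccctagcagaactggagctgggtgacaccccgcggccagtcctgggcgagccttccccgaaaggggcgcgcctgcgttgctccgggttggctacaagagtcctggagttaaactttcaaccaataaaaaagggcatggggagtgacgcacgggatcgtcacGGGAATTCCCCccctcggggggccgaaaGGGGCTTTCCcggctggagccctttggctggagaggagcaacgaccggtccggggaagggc
Nfkb2 (middle promoter, chr19:46305445-46305744, plus strand): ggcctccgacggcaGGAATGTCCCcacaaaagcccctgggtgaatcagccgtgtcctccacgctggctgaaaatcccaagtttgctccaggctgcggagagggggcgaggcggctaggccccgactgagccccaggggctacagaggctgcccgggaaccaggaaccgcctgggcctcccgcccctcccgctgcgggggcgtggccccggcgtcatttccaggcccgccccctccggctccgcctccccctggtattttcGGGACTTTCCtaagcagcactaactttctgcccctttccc
Casp4 (chr9:5308599-5308898, plus strand): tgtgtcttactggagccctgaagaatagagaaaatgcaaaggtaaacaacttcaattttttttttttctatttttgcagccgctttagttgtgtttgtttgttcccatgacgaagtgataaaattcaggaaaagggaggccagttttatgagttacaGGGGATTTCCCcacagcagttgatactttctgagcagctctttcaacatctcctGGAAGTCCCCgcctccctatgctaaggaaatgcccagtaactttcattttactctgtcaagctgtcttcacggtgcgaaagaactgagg
Tlr2 (chr3:83841559-83841858, minus strand): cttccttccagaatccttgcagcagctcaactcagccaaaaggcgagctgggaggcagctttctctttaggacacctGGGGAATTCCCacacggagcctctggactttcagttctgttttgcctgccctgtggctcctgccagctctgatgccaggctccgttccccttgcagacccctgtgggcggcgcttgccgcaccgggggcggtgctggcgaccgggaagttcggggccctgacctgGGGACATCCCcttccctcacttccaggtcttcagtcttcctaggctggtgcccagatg

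In Cxcl10 the matches begin 159 and 104 bases before the start site, in Casp4 93 and 39 bases before it, and in Tlr2 173 and 8 bases before it. The first promoter of Nfkb2 holds both close to the start, 39 and 11 bases before it. A further Nfkb2 promoter in the table, not printed, overlaps the middle one and holds 1 match, which lies in both windows. Other genes that rose and hold a match are Sod2, Gpr132, Sqstm1, H2-K1 and H2-Q4. The windows of Acod1, Mmp14, Clec4e, Traf1, Birc3, Icam1 and Ikbke held no match, which says only that these letters are not there.

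Genes of itaconate and redox metabolism held the highest rise of all. Acod1, the enzyme that makes itaconate from a tricarboxylic acid cycle intermediate, was at 5.52 and 5.69 log2 at 0 h, 10.33 at 3 h and 9.64 at 6 h. The rise of 4.38 ± 0.66 (20.8-fold; limma, adjusted p = 0.0187) exceeded that of every other gene tested. Sod2, mitochondrial superoxide dismutase, went from 9.02 and 8.94 to 10.55 and 10.63 and rose by 1.61 ± 0.18 (limma, adjusted p = 0.00743). Those were the 2 of 14 itaconate, nitric oxide and redox genes that passed. Nos2, inducible nitric oxide synthase, was at 4.88 and 4.79, then 5.43 and 6.49 (1.13 ± 0.34), and did not pass. The cystine transporter gene Slc7a11 was at 4.35 and 4.01, then 6.75 and 5.64 (2.02 ± 0.52, adjusted p = 0.206 with limma). Cybb, the NADPH oxidase subunit, was about 1 log2 unit higher (0.97 ± 0.32) without passing.

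Among receptors that recognise microbes and damaged cells, 3 of 20 rose and 0 fell (list median 0.61 log2). Clec4e, the lectin Mincle, had nearly equal arrays within each group: 8.33 and 8.30 log2 at 0 h, 12.01 at 3 h and 11.87 at 6 h. It rose by 3.62 ± 0.60 (limma, adjusted p = 0.0271). Marco, a scavenger receptor, went from 6.74 and 7.10 to 8.81 and 8.95 (1.96 ± 0.27, adjusted p = 0.0157). Tlr2, the receptor for bacterial lipopeptides, was higher at 3 h (9.04) than at 6 h (8.38) against 6.95 and 7.01 at 0 h, and rose by 1.73 ± 0.31. Fpr2, a formyl peptide receptor, lay just outside the threshold (1.68 ± 0.31, adjusted p = 0.0512). Clec4d, a lectin that pairs with Mincle, was 0.54 ± 0.14 higher and did not pass.

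Of 17 adhesion, costimulation and SLAM genes 2 rose and 0 fell, around a list median of 0.86 log2. Cd69, an activation marker of leukocytes, was at 5.06 and 5.30, then 8.01 and 7.47, a rise of 2.56 ± 0.36 (limma, adjusted p = 0.0158). Icam1, the ligand of leukocyte integrins, was at 7.86 and 7.73, then 10.43 and 10.11, a rise of 2.48 ± 0.35 (adjusted p = 0.0157). Both were higher at 3 h than at 6 h. The SLAM family genes Slamf6 (4.66 and 4.64, then 5.75 and 6.66) and Slamf8 (5.45 and 4.91, then 7.13 and 8.34) ran the other way, higher at 6 h, and just missed the threshold at adjusted p = 0.0506 and 0.0615 with limma. Vcam1, another integrin ligand, was 1.28 ± 0.28 higher and did not pass.

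Among chemokine genes of the CXC family, 2 of 9 genes rose (list median 1.03 log2). Cxcl10, which attracts T cells through CXCR3, was at 8.16 and 8.48, then 11.76 and 11.85, and rose by 3.48 ± 0.57 (limma, adjusted p = 0.0271). Cxcl16, a membrane-bound chemokine shed by metalloproteases, went from 8.94 and 9.02 to 10.43 and 10.73 and rose by 1.60 ± 0.25. Cxcl9, of the same CXCR3 group, was at 4.50 and 4.53, then 6.09 and 6.10 (1.58 ± 0.37), and did not pass. Among 10 CC chemokines 1 rose, Ccl5, from 6.73 and 6.68 to 7.96 and 8.11 (1.33 ± 0.22, adjusted p = 0.0271). The monocyte attractants Ccl2 and Ccl7 lay in the other direction: Ccl7 was at 11.28 and 11.16 at 0 h, 9.90 at 3 h and 8.17 at 6 h (-2.19 ± 1.69), and Ccl2 at 11.60 and 11.47, then 10.55 and 9.35 (-1.58 ± 1.77). Their large standard errors reflect how far apart arrays within a phase lay, 6.04 at 12 h and 8.90 at 24 h for Ccl7, and neither passed.

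Of 20 cytokine and antagonist genes 0 passed with limma, and the list ran from -0.81 to 1.07 log2 with a median of 0.33. Osm, oncostatin M, was at 6.31 and 6.36, then 5.81 and 5.23 (-0.81 ± 0.21), and Ebi3, a subunit of IL-27 and IL-35, was at 7.74 and 8.05, then 8.84 and 8.75 (0.90 ± 0.27). Il10 was at 4.34 and 4.43, then 5.24 and 4.62, close to the level of 4.34 log2 under which genes were left out. In the fit of 4 arrays 3 cytokine genes were higher and 1 lower.

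Of 19 interferon-stimulated genes 0 passed with limma, and all 19 changes lay above 0, between 0.15 and 2.04 log2 (median 0.81). Their median was 0.62 at 3 h and 1.13 at 6 h, and 12 of the 19 passed in the fit of 4 arrays, all higher. Gbp5, a guanylate-binding protein of host defence, was at 4.60 and 4.89, then 6.66 and 6.92 (2.04 ± 0.39, adjusted p = 0.0615). Ifit1, an RNA-binding antiviral protein, was at 8.44 and 8.37, then 9.45 and 10.37 (1.5 ± 0.47), and Rsad2, viperin, at 8.29 and 8.49, then 9.52 and 10.05 (1.39 ± 0.47). Irf1, a transcription factor of the interferon response, was 0.93 ± 0.30 higher. Outside the list, Ifi205, an interferon-inducible gene of the p200 family with close relatives that may share probe sequence, rose by 2.31 ± 0.39, from 6.37 and 6.34 to 8.37 and 8.97 (adjusted p = 0.0294). The class I histocompatibility genes H2-K1 (0.75 ± 0.13) and H2-Q4 (1.03 ± 0.19) rose as well (named after their values were seen), with the same reservation about relatives. Both lay close to the threshold, at adjusted p = 0.0438 and 0.0498 (limma), and over the alternatives H2-Q4 ranged from 0.66 to 1.16 log2. Of 11 class II and antigen presentation genes 0 passed, and they ran from -0.12 to 0.57 log2.

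**Figure D2:**
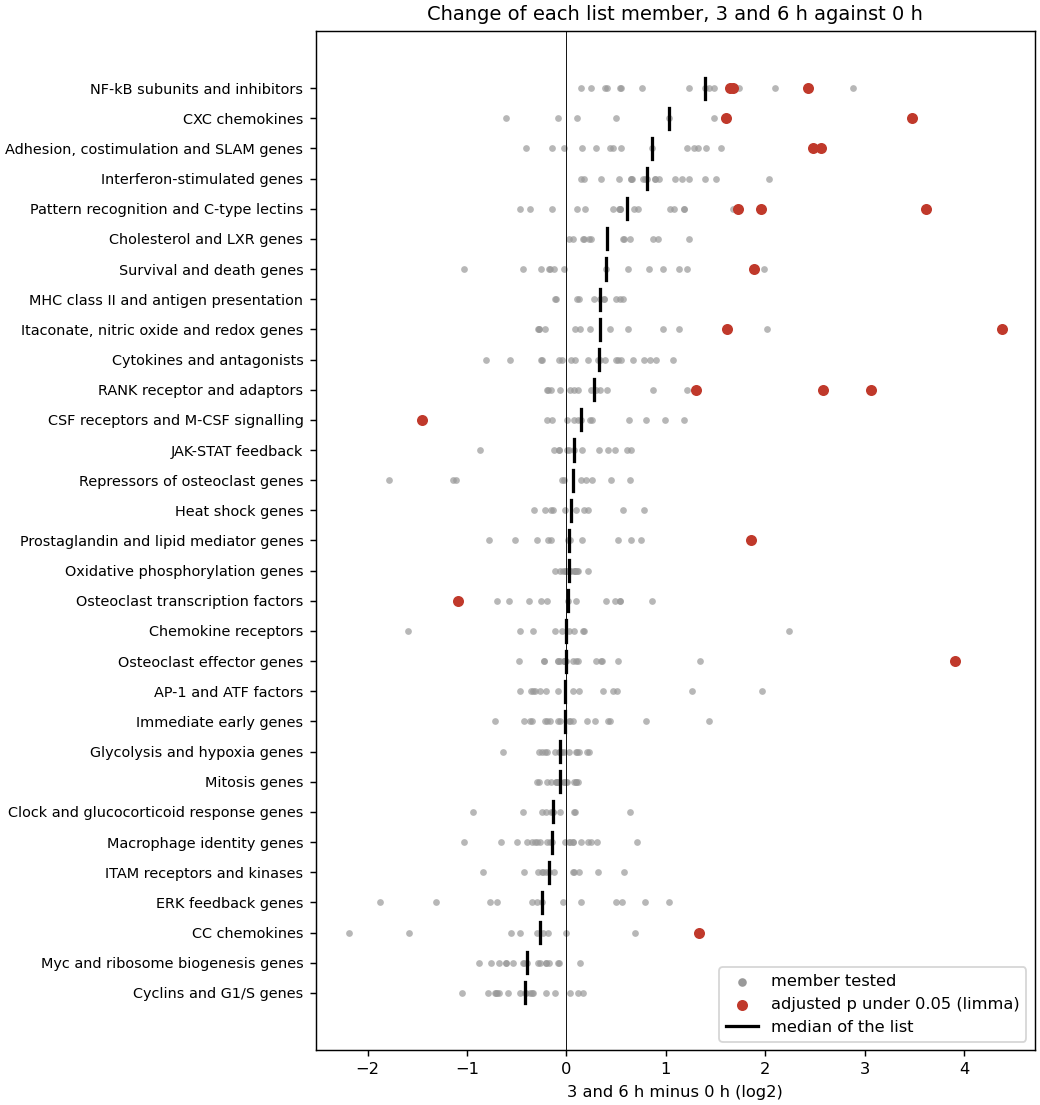
Change (log2, 3 and 6 h minus 0 h) of each tested member of the 31 pathway lists, 1 list per row, with grey points for members, red points for members with an adjusted p under 0.05 (limma) and a bar at the list median. The NF-κB row has the highest median (1.39) and the cyclin and G1/S row the lowest (-0.41), and red points to the left of 0 are Rasgrp3 and Mef2a.

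Of 20 osteoclast effector genes, which carry out bone resorption, 1 rose, Mmp14, and the list median was -0.00 log2. Mmp14, a membrane-anchored metalloproteinase that activates other matrix proteases, was at 5.45 and 5.31, then 9.02 and 9.56, a rise of 3.91 ± 0.52 (15.1-fold; limma, adjusted p = 0.015). Mmp9, a gelatinase of mature osteoclasts, was at 5.38 and 5.49, then 6.34 and 7.21 (1.34 ± 0.59, not past the threshold). Its standard error takes in its later climb, such as from 7.47 at 12 h to 9.13 at 24 h. With the 4 arrays alone in the fit, the adjusted p of Mmp9 was 0.0182 (limma). Ctsk, cathepsin K, was at 5.72 and 5.45, then 5.76 and 6.00, and Acp5, tartrate-resistant acid phosphatase, at 6.61 and 6.64, then 6.51 and 6.88. The early arrays of Ctsk and Acp5 differed from 0 h by about as much as from each other. Later in the same DW series Ctsk reached 12.58 log2 at 72 h.

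Among 13 osteoclast transcription factors 0 rose and 1 fell, whereas in the fit of 4 arrays 4 were higher and 1 was lower. Mef2a, a MADS box factor, went from 11.16 and 11.00 to 10.00 and 9.98, a change of -1.09 ± 0.17 (limma, adjusted p = 0.0207). Nfatc1 was at 8.25 and 8.24 log2 at 0 h, 7.82 at 3 h and 8.26 at 6 h (-0.20 ± 0.27), and only later reached 9.68 at 48 h. Spi1, encoding PU.1, was 0.54 ± 0.13 higher and Nfatc2 -0.70 ± 0.19 lower, both short of the threshold. Irf8, a repressor of osteoclast genes, was at 8.06 and 8.17, then 8.20 and 8.43 (0.20 ± 0.58). Of the 10 repressor genes 0 passed. Id1, an inhibitor of helix-loop-helix factors, lay lowest among them, from 7.10 and 7.0 to 5.38 and 5.15 (-1.78 ± 0.43, adjusted p = 0.164), and its relatives Id2 (-1.11 ± 0.51) and Id3 (-1.14 ± 0.70) lay on the same side. In the fit of 4 arrays 1 repressor gene was higher and 3 were lower, Id1 among them (limma, adjusted p = 0.000231).

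AP-1 genes and the immediate early genes had no member past the threshold, 0 of 14 and 0 of 18, at list medians of -0.01 and -0.02 log2. Fos was at 6.98 and 7.01, then 9.22 and 8.71, a change of 1.97 with a standard error of 0.91 (adjusted p = 0.827 with limma). With the 4 arrays alone in the fit its adjusted p was 0.00038. The standard error in the fit of 8 groups takes in its later swing, from 7.23 at 12 h to 9.95 at 24 h. Junb went from 7.37 and 7.54 to 8.83 and 8.62 (1.26 ± 0.33). Egr1, a serum-response gene, was at 5.62 and 5.37, then 6.77 and 5.83 (0.80 ± 0.45), and Nr4a1 at 6.61 and 6.37, then 5.88 and 5.65 (-0.72 ± 0.23). The ERK feedback genes were mixed, 0 of 13 past the threshold: the phosphatase gene Dusp6 was at 10.94 and 10.98, then 9.37 and 8.79 (-1.88 ± 0.87), while Plk2 was 1.03 ± 0.37 higher. In the fit of 4 arrays 3 ERK feedback genes were higher and 4 lower, with an adjusted p of 0.000493 for Dusp6 (limma).

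The 18 cyclin and G1/S genes, which take cells into DNA replication, lay between -1.05 and 0.17 log2 (median -0.41), and 0 passed in the fit of 8 groups against 9, all lower, in the fit of 4 arrays. Cdt1, a replication licensing factor, was at 8.84 and 9.04, then 7.66 and 8.11 (-1.05 ± 0.57), and Ccnd2, cyclin D2, at 7.55 and 7.64, then 7.09 and 6.74 (-0.68 ± 0.29). The 17 Myc and ribosome biogenesis genes had a median of -0.40 log2 with 0 passed (5 lower in the fit of 4 arrays), such as Nolc1 (-0.76 ± 0.76). The 17 mitosis genes had a median of -0.06 and 0 passed in either fit. Glycolysis (median -0.06), oxidative phosphorylation (0.03) and heat shock genes (0.04) also had 0 past the threshold with limma.

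Genes of M-CSF signalling and macrophage identity mostly did not pass. Csf1r, the M-CSF receptor, changed by 0.08 ± 0.30 and Cx3cr1, the fractalkine receptor, by -0.34 ± 0.24. Of 13 genes of the M-CSF list 1 fell and 0 rose: Rasgrp3, a nucleotide exchange factor for Ras and Rap, was at 7.08 and 7.30, then 5.86 and 5.62, a change of -1.45 ± 0.21 (limma, adjusted p = 0.018). Of 21 macrophage identity genes 0 passed, with Cd163, the haemoglobin scavenger receptor, nearest at -1.03 ± 0.20 (adjusted p = 0.0754). Among survival and death genes 1 of 15 rose, Casp4, the inflammatory caspase that senses lipopolysaccharide, from 7.01 and 7.04 to 8.98 and 8.86 (1.89 ± 0.23, adjusted p = 0.0115). Fas, the death receptor gene, was at 6.05 and 6.04, then 8.40 and 7.68 (1.99 ± 0.40, adjusted p = 0.0808). Ptger4, a prostaglandin E2 receptor, was the 1 of 12 prostaglandin genes that rose, from 5.11 and 5.33 to 7.19 and 6.97 (1.86 ± 0.30).

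The remaining genes that fell belong to no list except as named above. Slc16a6, a monocarboxylate transporter gene, was at 8.32 and 8.26, then 6.80 and 6.95 (-1.41 ± 0.21, limma adjusted p = 0.0182). Snx24, a sorting nexin, was at 8.57 and 8.67, then 7.41 and 7.27 (-1.28 ± 0.17). Rhoh, an atypical small GTPase of blood cells, was at 6.25 and 6.41, then 5.09 and 5.38 (-1.09 ± 0.12, adjusted p = 0.00743), and Tbc1d2, a Rab regulator, at 6.53 and 6.42, then 5.65 and 5.70 (-0.80 ± 0.12). In each of the 6 genes that fell, both early arrays lay below both arrays at 0 h. Of the 53 genes that passed, 32 are in none of the 31 lists. Among those that rose are Rrad, a small GTPase that restrains calcium channels (2.41 ± 0.30, from 5.45 and 5.69 to 7.97 and 7.98), and Slc13a3, a dicarboxylate transporter (2.19 ± 0.22, from 6.12 and 5.96 to 8.01 and 8.44, adjusted p = 0.00526).

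**Figure D3:**
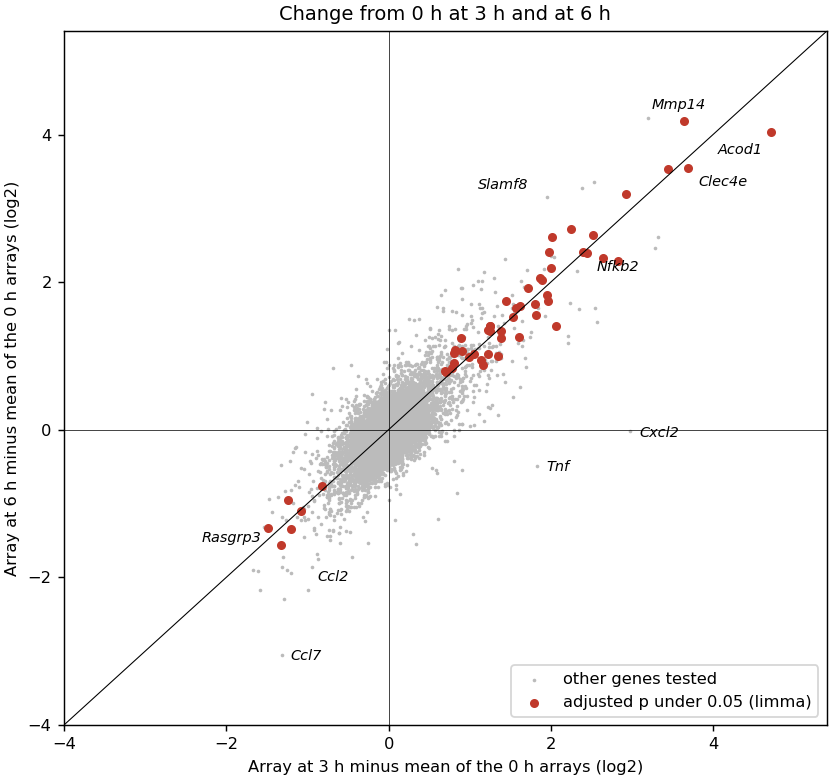
Change from the mean of the 0 h arrays at 3 h (x axis, log2) and at 6 h (y axis, log2) for the 15526 genes tested, with the genes past the threshold in red and the line of equal change. Red points lie along the line, while Cxcl2 and Tnf lie far below it, high at 3 h and near 0 or below at 6 h.

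Although the labels group 3 h and 6 h into a single phase, some genes differed widely between them. Because each time is 1 DW array, the step from 3 h to 6 h was set beside the same step in the αKG arm, which comes from other arrays. Over both arms limma called 0 of 15526 genes (0%), with 1254 at an unadjusted p under 0.05 and a smallest adjusted p of 0.0567. Other settings gave 0 to 3 genes, and 1051 with only the 4 arrays at these times in the fit. In the DW arm 362 genes were at least 2-fold from 0 h at 3 h or at 6 h. Of these, 290 stepped the same way in both arms, and across those genes, which are not independent, the steps correlated at r = 0.76 (n = 362 genes). Over all genes tested r was 0.38, and 61.3% stepped the same way, beside 80.1% of the 362, which were selected on the same DW arrays. The points share the time points and the normalization of the table, and the arms differ in αKG.

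The 10 genes with the largest steps down from 3 h to 6 h with DW follow. Cxcl2, a neutrophil attractant, was at 5.65 and 5.59 at 0 h, 8.60 at 3 h and 5.60 at 6 h, a step of -3.0 log2 with DW and -2.68 with αKG. Tnf, tumour necrosis factor, was at 9.38 and 9.30, then 11.18 and 8.86, a step of -2.32 with DW and -1.43 with αKG. With DW both genes were thus above 0 h on the 3 h array and back near or below it on the 6 h array. Their changes averaged over the DW phase were 1.48 ± 0.93 and 0.67 ± 1.5. With αKG at 6 h they were still above the 0 h mean, Cxcl2 at 7.44 (by 1.82 log2) and Tnf at 10.04 (by 0.69). Ccl4, a CC chemokine, went from 8.93 at 3 h to 7.10 at 6 h (-1.83 with DW, -1.03 with αKG), and Ccl3, its close relative, from 11.25 to 9.54 (-1.70 and -0.58). Ccl7 (-1.73 and -1.34) and Ccl2 (-1.20 and -0.46) continued below 0 h. Tnfsf9, the 4-1BB ligand (-1.31 and -0.82), Plaur, the urokinase receptor (-1.27 and -0.50), Rgs1, a regulator of G protein signalling (-1.27 and -0.16), and Jag1, a Notch ligand (-1.89 and -0.42), stepped down in both arms as well.

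Among the largest steps up with DW, Ifit2, an interferon-induced antiviral gene, was at 5.87 and 6.11 at 0 h, 6.64 at 3 h and 7.81 at 6 h, a step of 1.17 log2 with DW and 1.42 with αKG. Ifit1bl1, a relative of Ifit1, stepped by 1.32 and 1.49, and Trim30c, of an interferon-inducible TRIM cluster, by 1.27 and 0.98. Slamf8 (1.22 and 1.56) and Ly6i (1.21 and 1.16) followed. Because the genes were chosen by their step with DW, a smaller step with αKG is no finding, and the difference was not tested: it was so for Abcg1, a cholesterol exporter (1.26 and 0.46), H4c8, a histone gene (1.35 and 0.32), Tlr9, the receptor for unmethylated DNA (1.12 and 0.24), Ceacam19 (1.13 and 0.22) and Calhm6 (1.17 and 0.70). Ly6i, Trim30c and Ifit1bl1 have close relatives that may share probe sequence. Of the 17 genes at least 2-fold higher at 6 h than at 3 h with DW, 16 stepped the same way with αKG, 6 of them at least 2-fold. Of the 16 genes at least 2-fold higher at 3 h, 15 stepped the same way with αKG and 6 of them at least 2-fold.

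**Figure D4:**
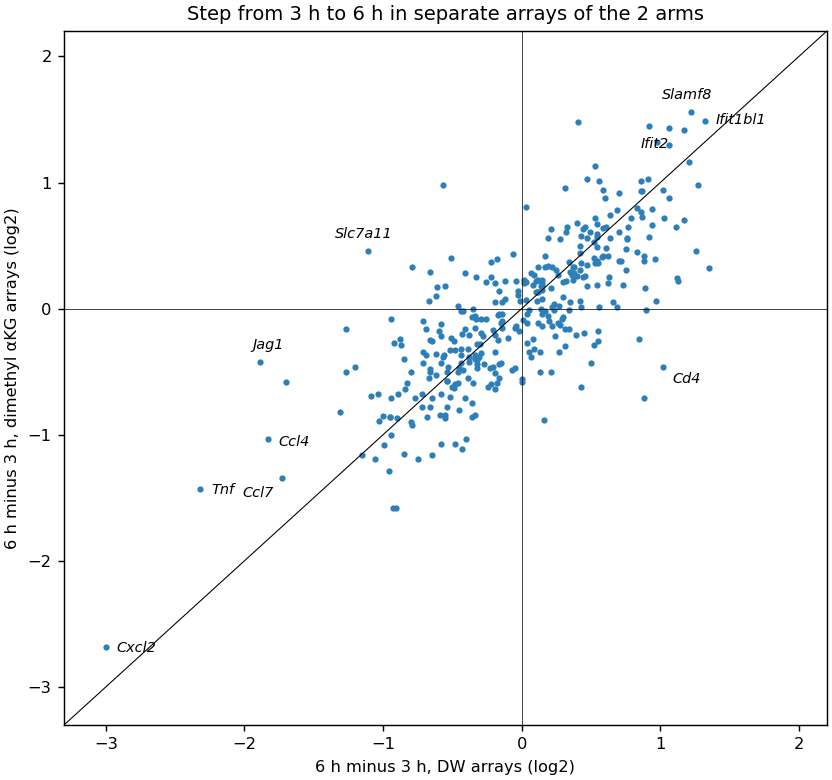
Step from 3 h to 6 h (log2) in the DW arm (x axis) and in the dimethyl αKG arm (y axis) for the 362 genes at least 2-fold from 0 h at either time with DW, 1 point per gene and the line of equal steps. Most points lie in the lower left or upper right field (290 of 362), with Cxcl2 and Tnf at the lower left and Slamf8, Ifit2 and Ifit1bl1 at the upper right.

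How long the early rise lasted differed between genes. Each later time is 1 array, the 0 h arrays are shared, and the genes had been chosen for being high at 3 and 6 h, so the later values are a description. Of the 47 genes that rose, 38 were at least 2-fold above the 0 h mean on the array of 3 h and 40 on that of 6 h, then 31 by 12 h, 29 by 24 h, 18 by 48 h and 17 by 72 h. Their median change was 1.61 log2 after 3 h and 1.55 after 6 h, and on the later arrays 1.29 (12 h), 1.24 (24 h), 0.56 (48 h) and 0.73 (72 h). Over the same times the number of all genes at least 2-fold from 0 h did not grow steadily: 165 were higher and 43 lower at 3 h, 208 and 87 at 6 h, 327 and 276 at 12 h, 237 and 214 at 24 h, 286 and 393 at 48 h, and 659 and 967 at 72 h.

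A lasting group of 13 genes stayed at least 2-fold above 0 h on all 6 DW arrays. It holds signalling genes of the RANK pathway (Traf1, Birc3, Nfkb2 and Relb), Mmp14, Icam1, Rrad, Slc13a3, Gpr132, Rnf19b, Mllt6 and Psmd10, along with 1 predicted gene. Nfkb2 was nearly flat, at 9.17 log2 after 12 h and 9.11 after 24 h, then 8.99 and 8.92 on the last arrays. Mmp14 went on upward, to 11.13 at 72 h. A passing group of 18 genes was at least 2-fold up at 3 and 6 h and under 2-fold at 48 and 72 h. Acod1, Clec4e, Cd69, Ifi205, Saa3, Marco, Tlr2, Ikbke, Sod2, Cxcl16, Ccl5 and Cd40 are among them. Acod1 had returned to 7.10 at 12 h and 5.63 at 48 h, and Clec4e was at 7.10 at 72 h, below its 0 h level. Tlr2, Ikbke, Ccl5, Cd40 and Adam17 were below the 0 h mean at both 48 and 72 h. The 6 genes that fell mostly stayed down, with a median change of -1.54 log2 at 48 h and -1.28 at 72 h, and Rasgrp3 reached 4.88 at 72 h.

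**Figure D5:**
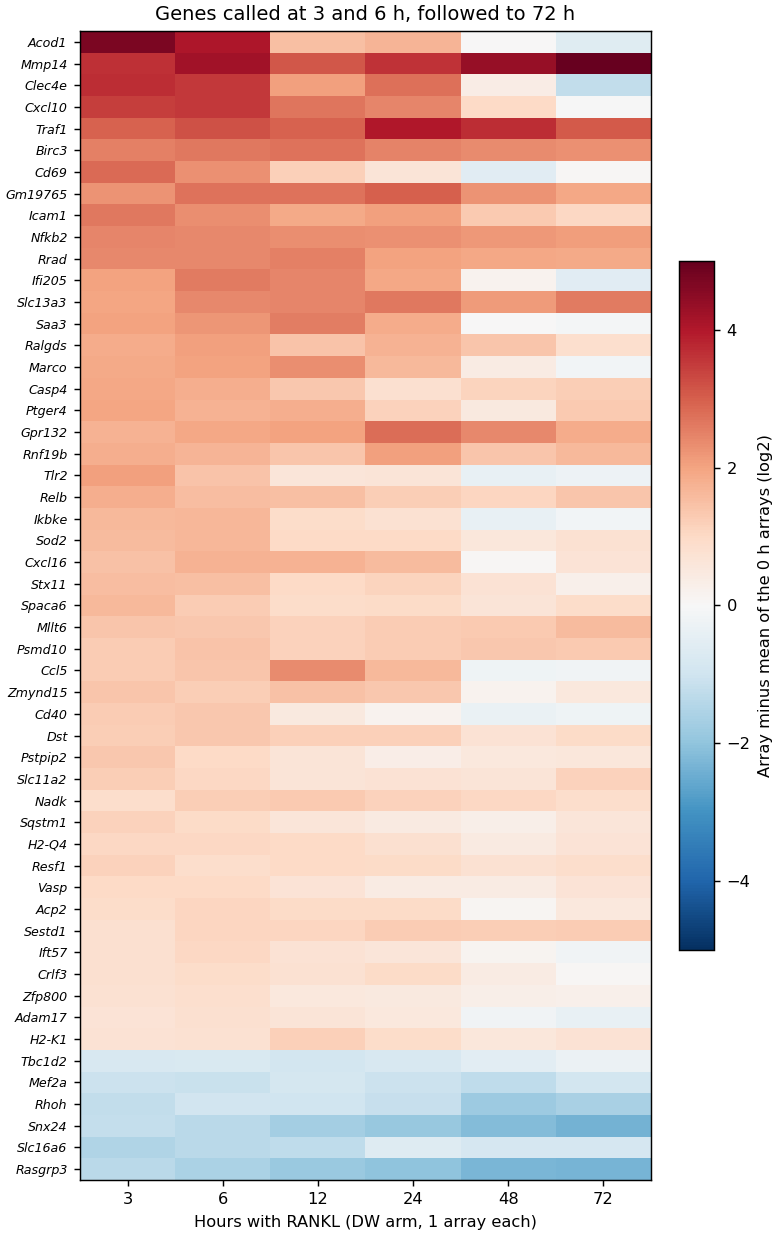
Change from the mean of the 0 h arrays (colour, log2) of the 53 genes past the threshold, 1 gene per row in order of change, on the DW arrays at 3, 6, 12, 24, 48 and 72 h. Rows such as Nfkb2, Birc3 and Mmp14 stay red to 72 h, and rows such as Acod1, Clec4e and Cd69 fade by 48 h. The 6 rows at the bottom stay below 0, with Tbc1d2 close to it at 72 h (-0.30).

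Values with αKG at the same times are given side by side without a test, since they share the 0 h arrays. The genes had also been chosen by their change with DW, so a smaller count or median with αKG is no finding. Of the 47 genes, 33 were at least 2-fold above 0 h with αKG at 3 h and 34 at 6 h, with median changes of 1.39 and 1.38 log2. Of the 6 genes that fell, 4 were at least 2-fold down at each time. Nfkb2 stood at 9.16 log2 at 3 h and 9.38 at 6 h with αKG, beside 9.29 and 9.25 with DW. Acod1 stood at 10.41 and 10.25 with αKG, beside 10.33 and 9.64. Among genes picked after their values were seen, Saa3, an acute-phase protein gene, was lower with αKG, at 6.15 and 6.49 beside 7.36 and 7.55, and so was Mmp14, at 7.97 and 8.35 beside 9.02 and 9.56. Sqstm1, the autophagy receptor p62, was higher with αKG, at 11.84 and 12.04 beside 11.38 and 11.19.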

How the data were processed

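Total RNA was converted to cDNA, biotin-labelled with a whole-transcript terminal labelling kit and hybridised to 1-colour arrays, per the labels' protocols. The deposited table holds log2 values, which entered the fits without further normalization, and the base was inferred from their range (0.61 to 13.25). How the authors summarised and normalized the probes, and on which genome build, is not given in the sources used here. Precision is limited by how few arrays there are. A single gene symbol was attached to 23521 of the 33793 features, several to 1814, and 8458 are unnamed here. Of the 22180 genes, 1082 had several features and the one with the highest mean over 16 arrays was kept. The 30% of genes with the lowest mean (up to 4.34 log2) were left out, and 15526 were tested.

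Groups came from the labels: 8 groups of 2 arrays, with early DW (3 and 6 h) compared with 0 h in limma 3.58.1 under R 4.3.3 (lmFit, eBayes with intensity trend, 8 residual degrees of freedom, Benjamini-Hochberg adjustment, threshold 0.05). The step from 3 h to 6 h was fitted on 12 arrays with arm and time as terms (5 residual degrees of freedom). The fit of 8 groups was tested on simulated data, and the fit of the step from 3 h to 6 h was not. No replicate number pairs these arrays.

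The comparison, the 31 pathway lists (504 members, 469 measured, 455 tested) and the marker lists were chosen with earlier results of these data known, so they are described by counts and medians. Genes named are the 12 highest and 12 lowest changes past the threshold (predicted and small RNA genes skipped; 6 fell), up to 5 members of each list discussed, by smallest p, 8 anchor genes, and the 10 largest steps between 3 h and 6 h in each direction among genes at least 2-fold from 0 h; others are stated as named after their values were seen. Alternatives were other filters, normalizations, feature choices, variance models, sets of arrays and fold limits, and leaving out each array.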

Additional observations from a re-analysis of the deposited data

Results flagged for a closer look

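Of the 362 genes at least 2-fold from 0 h at 3 h or 6 h with DW, 290 stepped the same way in both arms. Among those also at least 2-fold apart between 3 h and 6 h with DW, the steps of 2 genes ran in opposite directions. Each time and arm is 1 array, and the difference was not tested. Cd4 stepped by 1.02 log2 with DW and by -0.46 with αKG. Slc7a11, the cystine transporter gene, stepped by -1.11 with DW and by 0.46 with αKG.

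Features that name no single gene were counted without a test. Of 1182 features with several gene symbols above the filter level, 2 were at least 2-fold higher on both early arrays than on both arrays at 0 h and 0 were as much lower. They are the feature shared by H2-Q6 and H2-Q8 (5.20 and 5.28 at 0 h, 6.99 at 3 h and 6.83 at 6 h) and the feature shared by Gbp2 and Gbp2b (6.26 and 6.24, then 7.71 and 8.56). Of 3818 features unnamed here, 9 were higher and 2 lower by the same measure. Among genes tested, 0.631% were higher and 0.109% lower by it.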

How the results depend on the processing

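Without a filter, with the lowest 50% left out, with quantile normalization, centred medians, averaged features, no intensity trend or robust eBayes, 50 to 59 genes passed, beside 53. In other sets of arrays, 775 genes passed with only the 4 arrays in the fit, and 20 with only the 8 arrays without αKG. Alternatives chosen after seeing the data gave 733 genes with each time as its own level, where the time step no longer counts as spread, with 58.5% higher, and 62 without the DW array at 72 h. List members past the threshold, 21 in the main fit, numbered 145 with 4 arrays, 12 with 8 arrays and 114 with times as levels. Leaving out 1 array gave 1 to 2 genes, of which 1 was a list member (Nfkb2). For 6 h against 3 h, where 0 passed, centring gave 2 (Frmd6 and Samsn1), robust eBayes 3 (with Slamf8), the 4 arrays alone 1051, and leaving out 1 array 0 to 1 (Noxred1, without the DW array at 3 h). The 115 genes at least 2-fold away on both arrays became 355 at 1.5-fold and 35 at 3-fold, and 142 to 250 without 1 array, the highest without the 3 h array. Each of the 53 genes kept its direction under these alternatives, but they had been chosen for a clear change, so a reversal was unlikely. The share of higher genes among those that passed did move, from 88.7% in the main fit to 60.3% with 4 arrays. No paired analysis was possible because no number links the arrays at 0 h with those at 3 and 6 h. Signal over background was not given, so low values near 4.34 log2 are uncertain.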

Other observations

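Several genes with large changes on both early arrays did not pass in the fit of 8 groups and belong to no gene group described above. They were picked after their values were seen. Tmem176b, an intracellular cation channel gene of myeloid cells, was at 5.91 and 5.75 log2 at 0 h, 9.03 at 3 h and 10.06 at 6 h (3.71 ± 0.83, adjusted p = 0.141 with limma), and its neighbour and relative Tmem176a, which may share probe sequence, was at 5.73 and 5.44, then 8.12 and 8.94. Gpr84, a receptor for medium-chain fatty acids, was at 8.42 and 8.20, then 11.62 and 10.91 (2.96 ± 1.27, adjusted p = 0.736). Spic, a transcription factor of iron-recycling macrophages, was at 4.53 and 4.55, then 6.58 and 6.88 (2.19 ± 0.71). In the other direction Plau, the urokinase gene, was at 11.25 and 11.17, then 9.92 and 8.93 (-1.79 ± 1.14). Smad6, an inhibitor of BMP signalling and like Id1 a BMP target, was at 6.19 and 6.28, then 4.97 and 5.01 (-1.24 ± 0.39).

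The chemokine receptor genes held 1 member at least 2-fold up and 1 down on both early arrays, with 0 of 10 past the threshold with limma. Ccrl2, an atypical receptor that presents chemerin, was at 5.68 and 5.81, then 8.07 and 7.90 (2.24 ± 0.54, adjusted p = 0.162), and Ccr1, a receptor of CCL3 and CCL5, was at 7.41 and 7.30, then 6.04 and 5.50 (-1.59 ± 0.61). All 12 cholesterol and LXR genes lay above 0 h (0.03 to 1.23 log2, median 0.41), again with 0 past the threshold and 4 in the fit of 4 arrays. Nr1h3, which encodes the sterol receptor LXRα, was at 6.07 and 5.99, then 7.05 and 7.47 (1.23 ± 0.41), and Abca1, a cholesterol exporter, at 8.46 and 8.58, then 9.13 and 9.75 (0.92 ± 0.69). Among genes outside the lists, picked after their values were seen, Slc11a2, an iron transporter, rose by 1.12 ± 0.18 (limma, adjusted p = 0.0257) and Nadk, the kinase that makes NADP, by 1.07 ± 0.15 (adjusted p = 0.0158).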
